A study of Mus musculus with 20 samples.

Results

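Iron transport, storage and scavenging in the kidney was followed through 10 genes taken by symbol from the expression tables of whole mouse kidney: Tfrc, Slc40a1, Slc11a1, Slc11a2, Hp, Hpx, Cp, Trf, Fth1 and Ftl1. All 10 were found among the 47069 genes of the count table, and all 10 passed the filter on low counts that left 17622 genes for testing. RNA-seq was performed on kidneys from 20 mice of the cross labelled 129SJ x C57Bl/6J, killed at 15 weeks of age. WT mice (n = 5) carried intact Col4a3 and were left untreated. The other 15 mice were Col4a3-/-, the Alport genotype, which lacks a collagen IV chain of the glomerular basement membrane, and were given from 5 weeks of age either PBS once a week under the skin (Veh, n = 6), Lademirsen, an oligonucleotide against miR-21, at 50 mg/kg in PBS once a week (anti-miR-21, n = 6), or ramipril, an angiotensin-converting enzyme inhibitor, at 11 mg/L in drinking water (ACEi, n = 3). The study's methods for this cross add weekly PBS injections in the ACEi group, which the labels do not mention. Because WT mice received no injection, genotype and PBS injection cannot be told apart in the comparisons with WT. The deletion is not limited to a cell type, and whole kidney was sequenced, so the comparisons do not separate podocytes, which make the missing chain, from the other cells.

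Cells take up iron as transferrin bound to the transferrin receptor, move it out of endosomes through the divalent metal transporter, store it in ferritin cages built of heavy and light chains, and release it through ferroportin, with a ferroxidase such as ceruloplasmin oxidizing the iron for loading onto transferrin. Haptoglobin and hemopexin bind free hemoglobin and heme in plasma. In the kidney, filtered transferrin and other iron carriers are taken back by the proximal tubule, and macrophages recycle the iron of engulfed red cells. When cytosolic iron is low, iron regulatory proteins bind a short hairpin, the iron-responsive element: in a 5′ UTR this blocks translation of the message, and in a 3′ UTR it protects the message from decay.

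The hairpin letters were searched in 1 transcript a gene of the GENCODE annotation (GRCm38) as a bulged C, 5 bases of stem, the loop CAGTGN and 5 bases that pair with the stem, with G-T pairs allowed. They are shown because they set apart the genes with a fully paired hairpin in the 5′ UTR, the 1 gene with such hairpins in the 3′ UTR, and those without a fully paired one. In the lines below, the capitals mark the 6 bases of the loop.
Fth1 5′ UTR, chr19:9982732-9982761, plus strand: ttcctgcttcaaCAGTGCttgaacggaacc
Ftl1 5′ UTR, chr7:45459778-45459807, minus strand: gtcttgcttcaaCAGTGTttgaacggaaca
Slc40a1 5′ UTR, chr1:45925464-45925493, minus strand: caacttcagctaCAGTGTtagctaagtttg
Tfrc 3′ UTR, chr16:32631219-32631248, plus strand: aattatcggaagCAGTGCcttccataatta
Tfrc 3′ UTR, chr16:32631598-32631627, plus strand: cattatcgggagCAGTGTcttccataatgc
Tfrc 3′ UTR, chr16:32631663-32631692, plus strand: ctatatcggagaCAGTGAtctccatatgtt
Tfrc 3′ UTR, chr16:32631710-32631739, plus strand: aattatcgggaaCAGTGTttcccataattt
All of these paired at all 5 stem positions. No fully paired hairpin was found in Slc11a1, Slc11a2, Hp, Hpx, Cp or Trf. Slc11a2 held a stretch in the 3′ UTR and Slc11a1 a stretch in the coding part that paired at 4 of the 5 positions, and neither is counted. A rule of 5 pairs does not show that a gene lacks a working element. Of 21677 protein-coding genes searched in the same way, 20 (0.0923%) had a fully paired hairpin in the 5′ UTR and 118 (0.544%) in the 3′ UTR, and Tfrc, with 4, was followed by genes with 1.

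Total estimated counts ran from 28474301 to 29479629 a mouse, from 70004591 to 73294858 alignments, so depth was close to equal, and levels are given as counts scaled to the library (CPM) after TMM scaling of the libraries. A gene was called where edgeR's quasi-likelihood test, fitted over all 20 mice, gave a Benjamini-Hochberg adjusted p under 0.05 over the 17622 genes; log2 fold changes are given ± SE. The targeted gene, Col4a3, ran from 194 to 238 CPM in WT mice and from 27.9 to 74.9 CPM in the Col4a3-/- mice, with no overlap. The extraction text in the labels names adipose tissue, while the tissue label is kidney: the thick ascending limb markers Umod and Slc12a1 summed to between 2012 and 6548 CPM in every mouse. Adipocyte markers (Adipoq, Plin1, Cidec, Lep, Adrb3 and Cfd) summed to over 100 CPM in 4 mice, Veh mice A1, A4 and A9 and anti-miR-21 mouse A12. Alb, the albumin gene of hepatocytes, exceeded 50 CPM in 3 mice, WT mice A17 and A18 and Veh mouse A20, all sequenced on flow cell B, which held 7 of the 20 libraries. Results whose call or direction turned on these libraries are also given without them. In whole kidney, fewer cells of a type and less RNA per cell cannot be told apart.

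The Alport kidney was compared with WT to see how the iron genes stood in disease under vehicle alone. In Veh mice, 9 of the 10 genes were called: Hp, Slc11a1, Cp, Trf and Slc40a1 were higher, and Tfrc, Slc11a2, Fth1 and Ftl1 were lower. Among all genes tested, 73.0% were called in this comparison, 39.0% higher and 34.0% lower, so the share of called iron genes has to be read against a background in which most genes differed. The median log2 fold change of the 10 genes was 0.19, beside 0.07 for all genes. The scaling bears on direction here: with library totals alone, the median of all genes moved from 0.07 to 0.65 and the called genes split into 11623 higher and 2684 lower in place of 6869 and 5998, and among the 9 called genes Ftl1 alone changed sign.

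**Figure D1:**
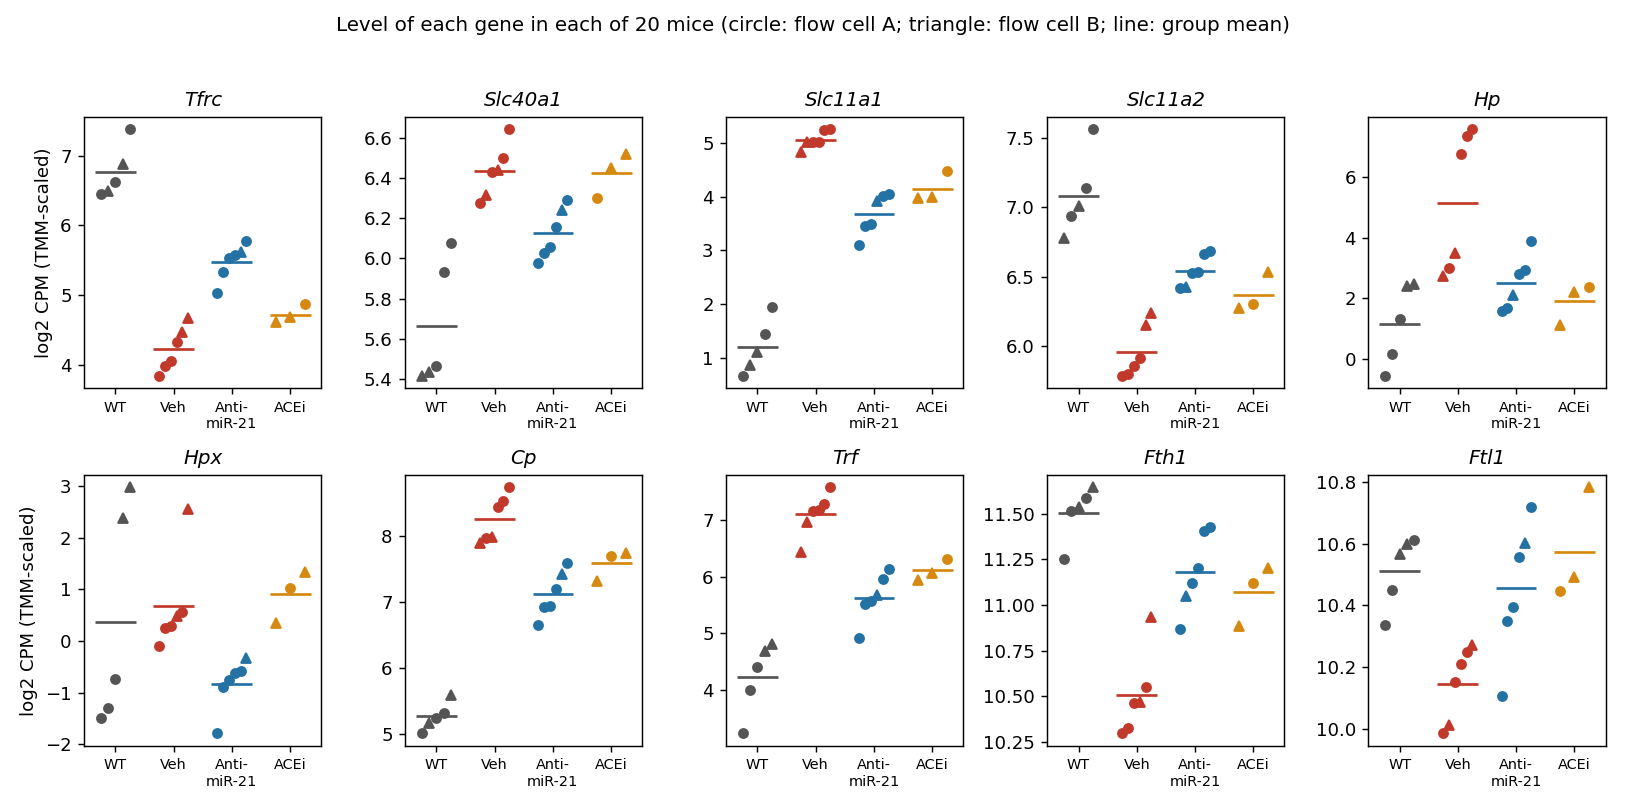
Level of each of the 10 genes in each mouse, as TMM-scaled log2 CPM on the vertical axis, by group. Points are mice (circles flow cell A, triangles flow cell B) and lines are group means; Tfrc in all 6 Veh mice sat below all 5 WT mice, and Hp in Veh mice fell into 3 high and 3 low mice.

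Tfrc (GRCm38, chr16:32608920-32632794, plus strand) encodes the transferrin receptor, through which cells take up transferrin-bound iron. It stood at 87.4, 90.5, 98.9, 118 and 166 CPM in the WT mice, and in Veh mice at 14.2 to 25.3 CPM with a median of 18.2. The groups did not overlap, and Tfrc fell by 2.57 ± 0.17 on the log2 scale, or 5.93-fold (edgeR adjusted p = 8.8e-11). In anti-miR-21 mice it ran from 32.4 to 54.9 CPM with a median of 46.9, above all Veh mice and below all WT mice. The difference from Veh was 1.25 ± 0.17 (edgeR adjusted p = 2.5e-06) and that from WT was -1.32 ± 0.17 (edgeR adjusted p = 3.5e-06). The 3 ACEi mice had 24.3, 25.5 and 29.1 CPM, of which the lowest lay below Veh mouse A16. The ACEi difference from Veh was 0.48 ± 0.20 and was not called (edgeR adjusted p = 0.062); it was called without Veh mouse A16 (0.60, edgeR adjusted p = 0.017), without Veh mouse A20 (0.55, edgeR adjusted p = 0.041) and when only these groups were fitted (0.47, edgeR adjusted p = 0.038). Red cells in the making also carry this receptor, and the red cell markers (Hba-a1, Hba-a2, Hbb-bs, Hbb-bt, Alas2 and Slc4a1) moved with it: their sum ran from 1155 to 6630 CPM in WT, 16.5 to 416 in Veh, 778 to 1523 in anti-miR-21 and 398 to 787 in ACEi mice. WT mouse A6 was the highest in both, and Veh mouse A9 the lowest in both. Slc4a1 did not follow the globin gene Hbb-bs among WT mice. A17 had the least Hbb-bs of them (383 CPM) but 56.0 CPM of Slc4a1, against 843 and 42.9 CPM in A3. All 6 red cell markers were called lower in Veh than in WT, and their part in the Tfrc result was not tested. The protein-coding genes closest to Tfrc over the 20 mice, by the root mean square difference of centred log2 CPM among 12569 candidates, were Slc16a7 (0.35), the deleted gene Col4a3 (0.36) and Gpm6a (0.39).

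Slc11a2 (chr15:100387898-100425072, minus strand) encodes the divalent metal transporter that moves iron across endosomal and brush border membranes. Its levels were 110 to 189 CPM in WT and 54.9 to 75.3 CPM in Veh mice, without overlap, a fall of 1.15 ± 0.12 on the log2 scale (edgeR adjusted p = 2.1e-08). The difference was -0.57 with library totals alone (edgeR adjusted p = 7.5e-05) and -0.49 on the deposited FPKM with a pseudocount of 1 (limma adjusted p = 0.00021). Anti-miR-21 mice (85.3 to 103 CPM) were higher than Veh by 0.58 ± 0.11 (edgeR adjusted p = 0.00016), and ACEi mice (77.1 to 92.4 CPM) by 0.41 ± 0.13 (edgeR adjusted p = 0.020). The ACEi call was lost without ACEi mouse A13 (0.33, edgeR adjusted p = 0.12) and with library totals alone (0.14, edgeR adjusted p = 0.37). The proximal tubule markers (Slc34a1, Slc5a2, Slc5a12, Slc22a6 and Miox) moved the same way: their sum ran from 11978 to 15247 CPM in WT, 1163 to 3655 in Veh, 6541 to 10994 in anti-miR-21 and 6755 to 8926 in ACEi mice. All 5 were called lower in Veh, and their part in the results for Slc11a2 and Tfrc was not tested. Slc11a2 overlaps Gm5475 on the other strand, and the strand used in counting is not given in the sources used here. The annotation deposited with the FPKM values marks Slc11a2 and Cp as confounded. The closest genes to Slc11a2 over the 20 mice were Stard4 (0.13), Dhcr7 (0.13) and Fgfr3 (0.14).

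Slc40a1 (chr1:45908068-45926523, minus strand) encodes ferroportin, the iron exporter of macrophages and epithelia. It moved opposite to the uptake genes, from 42.6 to 67.3 CPM in WT to between 77.3 and 99.8 CPM in Veh mice, a rise of 0.75 ± 0.11 (edgeR adjusted p = 4.5e-06) that was 1.33 with library totals alone (edgeR adjusted p = 1.2e-08). In anti-miR-21 mice it was lower than in Veh by 0.31 ± 0.10 (63.0 to 78.1 CPM, edgeR adjusted p = 0.015), a call that was lost without Veh mouse A19 (-0.24, edgeR adjusted p = 0.059) and without the 4 adipocyte-marker-rich mice (-0.31, edgeR adjusted p = 0.085). ACEi mice had 78.6, 87.4 and 91.7 CPM, and the difference from Veh was -0.01 ± 0.13 (edgeR adjusted p = 0.95). Because both counts come from the same library, the Tfrc to Slc40a1 ratio is free of the scaling between libraries. As a log2 ratio of counts, which is not a ratio of levels per length, it was 0.52 to 1.46 in WT mice and -2.67 to -1.65 in Veh mice. The anti-miR-21 mice (-1.14 to -0.20) lay between these ranges without touching either, and the ACEi mice (-1.91, -1.77 and -1.43) overlapped Veh.

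Slc11a1 (chr1:74375195-74386062, plus strand) encodes a metal transporter of the macrophage phagosome, also known as Nramp1. Its counts were low in WT mice, at 1.51, 1.76, 2.08, 2.66 and 3.77 CPM. In Veh mice it ran from 28.3 to 38.0 CPM with a median of 32.4, and it fell between these groups in the treated mice: 8.56 to 16.5 CPM with a median of 13.2 under anti-miR-21, and 15.6, 15.9 and 22.3 CPM under ACEi. The rise in Veh was 3.82 ± 0.22, or 14.2-fold (edgeR adjusted p = 9.2e-12), and the differences from Veh were -1.36 ± 0.17 under anti-miR-21 (edgeR adjusted p = 1.5e-06) and -0.90 ± 0.21 under ACEi (edgeR adjusted p = 0.0024). Neither treated group overlapped WT or Veh. The macrophage markers (Adgre1, Csf1r, C1qa, C1qb, Cd68 and Mrc1) summed to 140 to 154 CPM in WT, 817 to 998 in Veh, 341 to 518 in anti-miR-21 and 450 to 532 in ACEi mice, in the same order of groups, and all 6 were called higher in Veh than in WT. Their part in the Slc11a1 result was not tested. The closest genes to Slc11a1 by the same measure were Pld4 (0.20), Gpr65 (0.21) and Ccr2 (0.23).

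**Figure D2:**
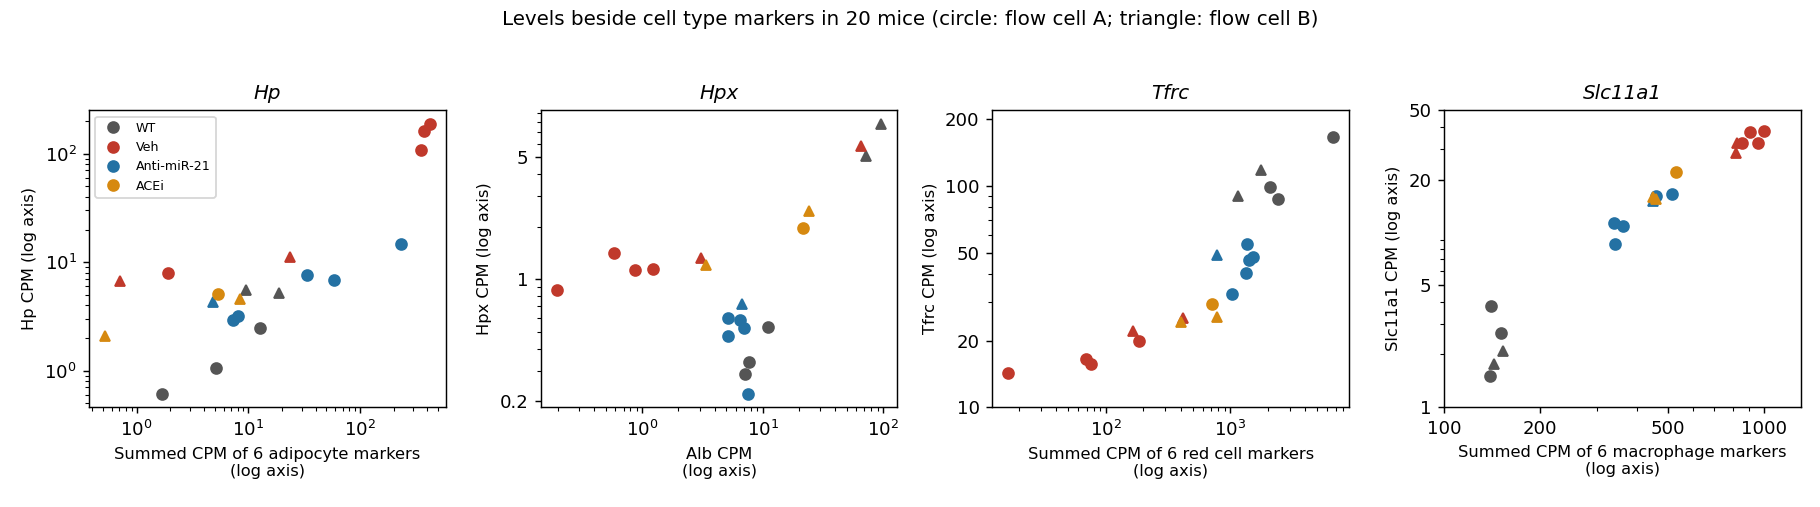
CPM of 4 of the genes (vertical axes, log scale) against marker levels in the same 20 mice (horizontal axes, log scale), with circles for flow cell A and triangles for flow cell B. The 3 Veh mice with Hp over 100 CPM were the 3 Veh mice with adipocyte markers over 100 CPM. Anti-miR-21 mouse A12, also over 100 CPM of adipocyte markers, had 14.8 CPM of Hp. The 3 mice with Hpx over 5 CPM were those with Alb over 50 CPM.

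Ceruloplasmin and transferrin, plasma proteins best known from the liver, were both higher in Alport kidneys. Cp, the copper ferroxidase (chr3:19957054-20009145, plus strand), stood at 32.1, 36.0, 37.5, 39.8 and 48.1 CPM in WT mice and at 236 to 426 CPM, median 299.7, in Veh mice. The groups were far apart, and the rise was 3.02 ± 0.19, or 8.09-fold (edgeR adjusted p = 4.0e-11). Anti-miR-21 mice had 100.2 to 192 CPM, median 134, and ACEi mice 159, 206.02 and 213.7 CPM. Both treated groups were below all Veh mice and above all WT mice, and differed from Veh by -1.14 ± 0.17 (edgeR adjusted p = 8.0e-06) and -0.70 ± 0.21 (edgeR adjusted p = 0.011). The ACEi call was lost without ACEi mouse A13 (-0.57, edgeR adjusted p = 0.084) and without the 4 adipocyte-marker-rich mice (-0.54, edgeR adjusted p = 0.085). Cp overlaps Hps3 on the opposite strand. By the same measure of likeness the nearest genes to Cp were Serpine2 (0.18), Casp12 (0.20) and Golm1 (0.21).

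Trf, the gene of transferrin itself (chr9:103204001-103230444, minus strand), stood at 9.35, 16.04, 21.2, 25.9 and 28.1 CPM in WT and 86.8 to 191 CPM, median 144, in Veh mice. The groups were apart, with a rise of 2.81 ± 0.26, or 7.01-fold (edgeR adjusted p = 4.9e-09). It was lower under anti-miR-21 (30.3 to 70.1 CPM, median 49.3) by -1.46 ± 0.23 (edgeR adjusted p = 1.6e-05) and under ACEi (61.4, 67.2 and 79.7 CPM) by -1.02 ± 0.28 (edgeR adjusted p = 0.0073), the latter not called without the 4 adipocyte-marker-rich mice (-0.80, edgeR adjusted p = 0.081). Trf overlaps Gm20425 on the same strand. Both treated groups still exceeded WT, by 1.34 ± 0.25 (edgeR adjusted p = 0.00021) and 1.79 ± 0.28 (edgeR adjusted p = 3.5e-05). So in Veh mice the ligand Trf was higher while its receptor Tfrc was lower. The genes nearest to Trf were Tubb2b (0.28), Kdelr3 (0.28) and Capg (0.28).

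The scavenger genes Hp and Hpx differed widely between mice of the same group. Hp, the gene of haptoglobin (chr8:109575128-109579172, minus strand), stood at 0.62, 1.07, 2.45, 5.19 and 5.54 CPM in WT mice. Among the Veh mice it was 107, 162 and 189 CPM in A9, A4 and A1, and 6.66, 7.998 and 11.2 CPM in A20, A19 and A16. Even the low Veh mice were above all WT mice, and the fitted rise was 4.76 ± 0.91 (edgeR adjusted p = 8.9e-05), with a larger SE than that of any gene above. Anti-miR-21 mice ran from 2.93 to 14.8 CPM, highest in A12, and ACEi mice had 2.10, 4.58 and 5.08 CPM. The differences from Veh were -3.61 ± 0.77 (edgeR adjusted p = 0.00046) and -4.37 ± 1.09 (edgeR adjusted p = 0.0036).

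Adipocytes are a known source of haptoglobin outside the liver. The adipocyte markers summed to 420, 374 and 355 CPM in Veh mice A1, A4 and A9 and to 0.71 to 23.7 CPM in the other 3 Veh mice. They reached 232 CPM in anti-miR-21 mouse A12 and 4.80 to 58.2 CPM in the other 5 of its group. Adipoq alone was 30.1 CPM in A12, beside 29.5, 33.1 and 26.0 CPM in A1, A4 and A9, while Hp was 14.8 CPM in A12. WT (1.68 to 18.9 CPM) and ACEi mice (0.52 to 8.37 CPM) were at the low end throughout. With the 4 mice over 100 CPM left out, the Hp rise in Veh was 1.53 (edgeR adjusted p = 0.016), and the differences of anti-miR-21 (-0.77, edgeR adjusted p = 0.23) and ACEi (-1.11, edgeR adjusted p = 0.17) from Veh were no longer called. Neutrophils also carry haptoglobin in their granules, and the 6 neutrophil markers together summed to at most 3.04 CPM in any mouse, of which 3 passed the filter and 1, Mmp8, was called higher in Veh. Mmp8 had at most 3 counts in any WT mouse and passed only through the Col4a3-/- groups, so its call carries no weight of its own. The genes nearest to Hp, Itih4 (1.06), Plin4 (1.20) and Rprm (1.21), were farther from it than those named for Slc11a1, Cp and Trf.

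Hpx, the gene of hemopexin (chr7:105591613-105600137, minus strand), followed other mice. It stood at 0.29, 0.34 and 0.53 CPM in WT mice A6, A14 and A3 and at 5.11 and 7.80 CPM in WT mice A17 and A18. Veh mouse A20 had 5.81 CPM, while the other 5 Veh mice ran from 0.87 to 1.41 CPM. The fitted difference between Veh and WT was -0.53 ± 0.67 and was not called (edgeR adjusted p = 0.49). Within flow cell A alone, which leaves out A17, A18 and A20 among others, Hpx was higher in Veh by 1.56 (edgeR adjusted p = 0.0023), and it was higher by 1.61 (edgeR adjusted p = 0.00076) when only those 3 mice were left out. Those 3 mice held 72.2, 96.5 and 65.1 CPM of Alb, against at most 24.3 CPM in the other 17. They also had the highest levels of the hepatocyte genes Ahsg (6.34, 8.14 and 6.49 CPM), Serpina3k (5.27, 6.04 and 5.39 CPM) and Apoa2 (3.27, 3.73 and 2.09 CPM). The other listed genes went otherwise. Fgb (5.11, 4.82 and 10.9 CPM) was highest in Veh mouse A16 (12.9 CPM), and Ttr (290, 346 and 364 CPM) in ACEi mouse A23 (656 CPM). The hepatocyte list as a whole, which includes the kidney-expressed Ttr, summed to 304 to 465 CPM in WT and 84.8 to 460.3 CPM in Veh mice, and its part in the Hpx result was not tested. Anti-miR-21 mice had 0.22 to 0.72 CPM and ACEi mice 1.21, 1.98 and 2.47 CPM, without overlap between them. Hpx was called lower under anti-miR-21 than in Veh (-1.89 ± 0.71, edgeR adjusted p = 0.028), a call lost without Veh mouse A20 (-1.15, edgeR adjusted p = 0.15) or anti-miR-21 mouse A15 (-1.74, edgeR adjusted p = 0.058) and kept with the 3 Alb-rich mice left out together (-1.16, edgeR adjusted p = 0.0014). The called difference of anti-miR-21 from WT (-2.42 ± 0.74, edgeR adjusted p = 0.012) turned to 0.45 (edgeR adjusted p = 0.36) without those mice, and the uncalled ACEi difference from WT (-0.58 ± 0.83, edgeR adjusted p = 0.59) turned to 2.29 (edgeR adjusted p = 0.00019).

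Ferritin, the storage cage, was lower in Veh mice at both chains, and more so at the heavy chain. Fth1, the heavy chain that oxidizes iron (chr19:9980598-9985098, plus strand), stood at 2436, 2923, 2967, 3075 and 3203 CPM in WT and at 1257 to 1954 CPM, median 1414, in Veh mice. There was no overlap, and the fall was 0.99 ± 0.12 on the log2 scale (edgeR adjusted p = 3.6e-07). The difference was -0.41 with library totals alone (edgeR adjusted p = 0.00029) and -0.40 on the deposited FPKM with a pseudocount of 1 (limma adjusted p = 0.00031). Under anti-miR-21 it ran from 1870.7 to 2749 CPM, median 2291, and under ACEi it was 1891, 2228 and 2359.6 CPM. These were above Veh by 0.67 ± 0.12 (edgeR adjusted p = 6.3e-05) and 0.55 ± 0.14 (edgeR adjusted p = 0.0039), although Veh mouse A16 overlapped both groups. Ftl1, the light chain that aids mineral formation (chr7:45457944-45459884, minus strand), had 1292 to 1566 CPM in WT and 1013 to 1236 CPM in Veh mice, a fall of 0.37 ± 0.10 (edgeR adjusted p = 0.0033) that turned to a rise of 0.22 (edgeR adjusted p = 0.040) with library totals alone and of 0.27 (limma adjusted p = 0.010) on the deposited FPKM. Under TMM it was not called within flow cell A alone (-0.31, edgeR adjusted p = 0.054) or without the 3 Alb-rich mice (-0.29, edgeR adjusted p = 0.054). It was higher than in Veh under anti-miR-21 (0.32 ± 0.10, edgeR adjusted p = 0.0089) and under ACEi (0.43 ± 0.12, edgeR adjusted p = 0.0068) with TMM scaling. The anti-miR-21 difference turned to -0.02 with library totals alone and -0.06 on FPKM, and was not called without the 4 adipocyte-marker-rich mice (0.26, edgeR adjusted p = 0.087). The ACEi difference was lost without ACEi mouse A13 (0.32, edgeR adjusted p = 0.074). Ftl1-ps1 (623 to 1032 CPM) and Ftl2-ps (542 to 850.4 CPM) are near-copies of the light chain that carried counts in every mouse, so how reads were divided among them makes the Ftl1 level uncertain.

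Within single mice the log2 ratio of Fth1 to Ftl1 counts was 0.91 to 1.08 in WT and 0.09 to 0.66 in Veh mice. No Veh mouse reached the WT range, so the lower heavy to light chain ratio held whatever the scaling between libraries. Anti-miR-21 mice spanned 0.45 to 1.07 and overlapped both, and ACEi mice (0.39, 0.42 and 0.68) all lay below WT. The Tfrc to Fth1 log2 ratio, of receptor to storage messages, was -5.14 to -3.87 in WT and -6.51 to -6.001 in Veh mice. It was -5.87 to -5.44 in anti-miR-21 mice, above all Veh mice, and -6.53, -6.28 and -6.26 in ACEi mice, within or just past the Veh range. The Hp to Hpx log2 ratio was 6.95 to 7.14 in the 3 adipocyte-marker-rich Veh mice and 0.20 to 3.08 in the other 3.

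**Figure D3:**
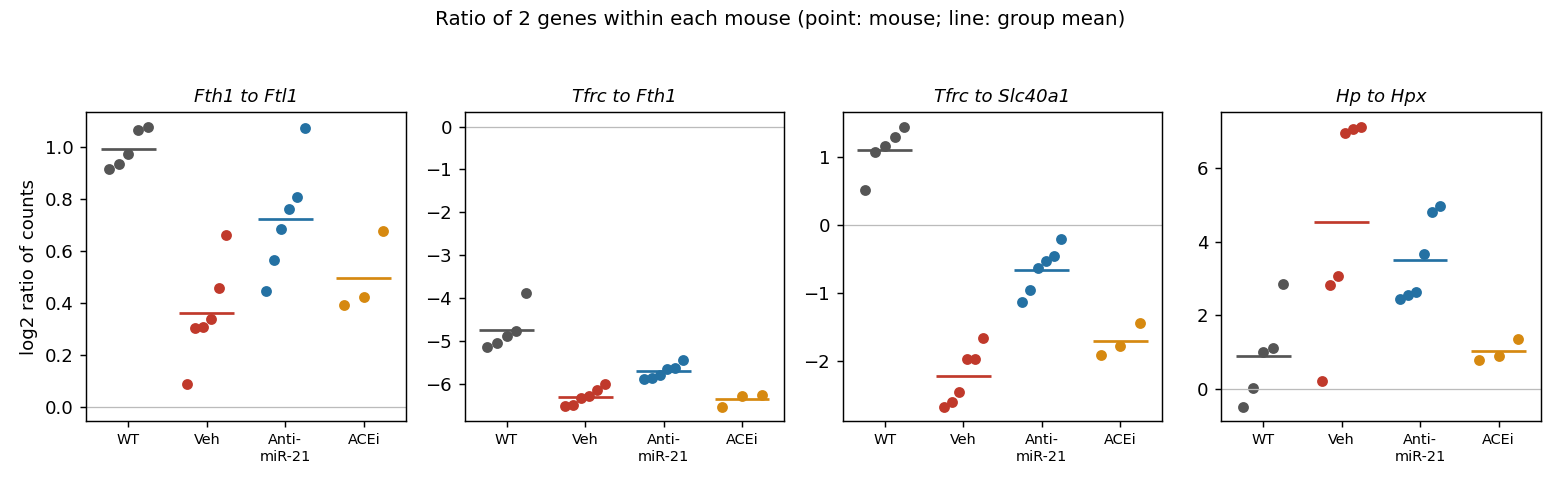
log2 ratio of the counts of 2 genes within the same mouse (vertical axes), by group, with a point for each mouse and a line for the group mean. In the Tfrc to Slc40a1 panel the 5 WT mice lie above all 15 Col4a3-/- mice.

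Placed beside the hairpins, Tfrc, with the element in the 3′ UTR, was lower in Veh than in WT. Those with it in the 5′ UTR were divided, with Slc40a1 higher and Fth1 and Ftl1 lower under TMM scaling. The letters are given as a description, and RNA-seq counts do not measure the translation that a 5′ element governs.

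The treatments were next compared with Veh. Under anti-miR-21 all 10 genes were called, 4 higher (Tfrc, Slc11a2, Fth1 and Ftl1) and 6 lower (Slc11a1, Cp, Trf, Hp, Hpx and Slc40a1), beside 59.2% of all genes tested, 28.8% higher and 30.5% lower. Their median log2 fold change was -0.72, and that of all genes -0.04. The anti-miR-21 count fell to 7 without the 4 adipocyte-marker-rich mice, when Hp, Slc40a1 and Ftl1 were not called, and to 8 on FPKM with a pseudocount of 1. Under ACEi 7 were called, 3 higher (Slc11a2, Fth1 and Ftl1) and 4 lower (Slc11a1, Cp, Trf and Hp), beside 40.1% of all genes, 21.0% higher and 19.1% lower. The ACEi count fell to 4 without ACEi mouse A13 and to 3 without the 4 adipocyte-marker-rich mice, when Slc11a2 (0.30, edgeR adjusted p = 0.17), Cp, Trf and Hp were not called. These comparisons share the Veh mice with each other and with the comparison against WT, so their directions are not independent of it.

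**Figure D4:**
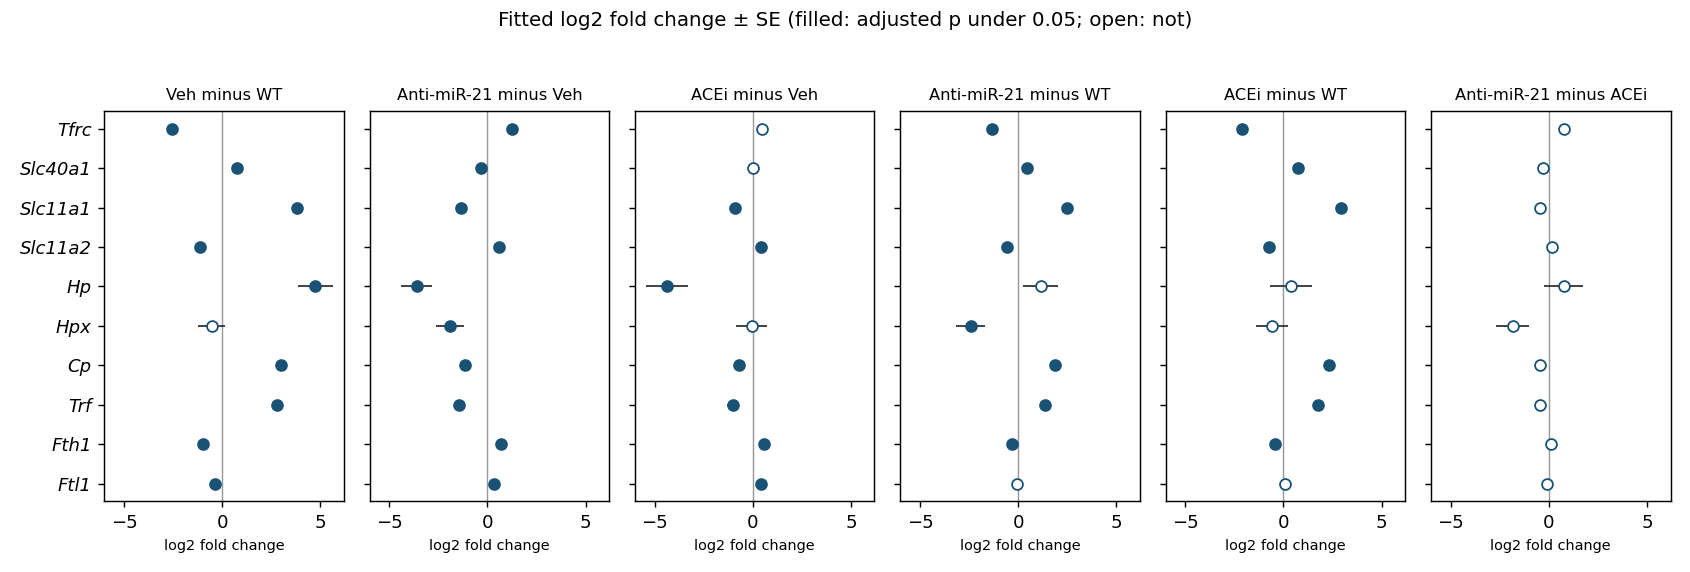
Fitted log2 fold change (horizontal axis) ± SE of each gene in the 6 comparisons, with filled points where the edgeR adjusted p was under 0.05 and open points where it was not. In the last panel, anti-miR-21 minus ACEi, all 10 points are open.

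Against WT, 8 of the 10 genes were called in anti-miR-21 mice and 7 in ACEi mice. In anti-miR-21 mice 4 were higher (Slc11a1, Cp, Trf and Slc40a1) and 4 lower (Tfrc, Slc11a2, Hpx and Fth1), beside 43.7% of all genes, 23.9% higher and 19.8% lower. The Fth1 difference of -0.32 ± 0.12 (edgeR adjusted p = 0.039) was lost in most alternatives, among them library totals alone (-0.09, edgeR adjusted p = 0.45), and with the 3 Alb-rich mice left out 5 genes were called, Slc40a1 (0.29, edgeR adjusted p = 0.061), Fth1 and Hpx no longer among them. In ACEi mice 4 were higher (Slc11a1, Cp, Trf and Slc40a1) and 3 lower (Tfrc, Slc11a2 and Fth1), beside 47.7% of all genes, 25.2% higher and 22.5% lower. Slc11a1 remained 5.52-fold above WT under anti-miR-21 and 7.57-fold under ACEi, while Ftl1 differed from WT by -0.05 ± 0.10 (edgeR adjusted p = 0.73) and 0.07 ± 0.12 (edgeR adjusted p = 0.69). With library totals alone the ACEi difference of Ftl1 from WT was called (0.38, edgeR adjusted p = 0.0090), and that of Fth1, -0.44 ± 0.15 with TMM (edgeR adjusted p = 0.022), was not (-0.12, edgeR adjusted p = 0.35).

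When the treatments were compared directly, none of the 10 genes was called by edgeR over all 20 mice, beside 0.584% of all genes tested. Of the 10 genes, DESeq2 called 1 and limma on the deposited FPKM called 0. For Tfrc every anti-miR-21 mouse exceeded every ACEi mouse, by 0.77 ± 0.21 on the log2 scale (edgeR adjusted p = 0.087). It was called by DESeq2 (0.77, DESeq2 adjusted p = 0.015) and by edgeR when only these groups were fitted (0.76, edgeR adjusted p = 0.032). Hpx was lower under anti-miR-21 by -1.84 ± 0.82 (edgeR adjusted p = 0.31), and was called when only these groups were fitted (-1.85, edgeR adjusted p = 0.027) or with the 3 Alb-rich mice left out (-1.84, edgeR adjusted p = 0.0084). With 3 ACEi mice, 2 of them on flow cell B, the SE of the other genes ran from 0.12 to 0.99, so a missed threshold does not show that the treatments act alike on them.

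Levels of different genes were compared per length, on the FPKM values as deposited. In WT mice the ferritin chains came first, Ftl1 at 1635 to 1914 FPKM and Fth1 at 1375 to 1749, with overlapping ranges. Slc11a2 (23.5 to 39.1 FPKM) and Tfrc (18.97 to 39.2) followed and overlapped, then Slc40a1 (10.5 to 16.9), Trf (3.96 to 11.6) and Cp (6.38 to 10.1), each overlapping its neighbour. Hp (0.39 to 3.38), Slc11a1 (0.45 to 1.33) and Hpx (0.17 to 4.33) came last and were not separated from each other by their ranges. In Veh mice the order of medians was changed below the ferritins: Cp (68.5 to 138 FPKM), Trf (45.4 to 105) and Hp (6.29 to 177) overlapped each other, Slc40a1 (26.9 to 38.2) stood clear of Slc11a2 (17.7 to 22.4), and Tfrc (5.01 to 8.06) fell below Slc11a1 (13.6 to 18.8). Fth1 (1079 to 1484 FPKM) then lay below Ftl1 (1956 to 2338) without overlap.

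**Figure D5:**
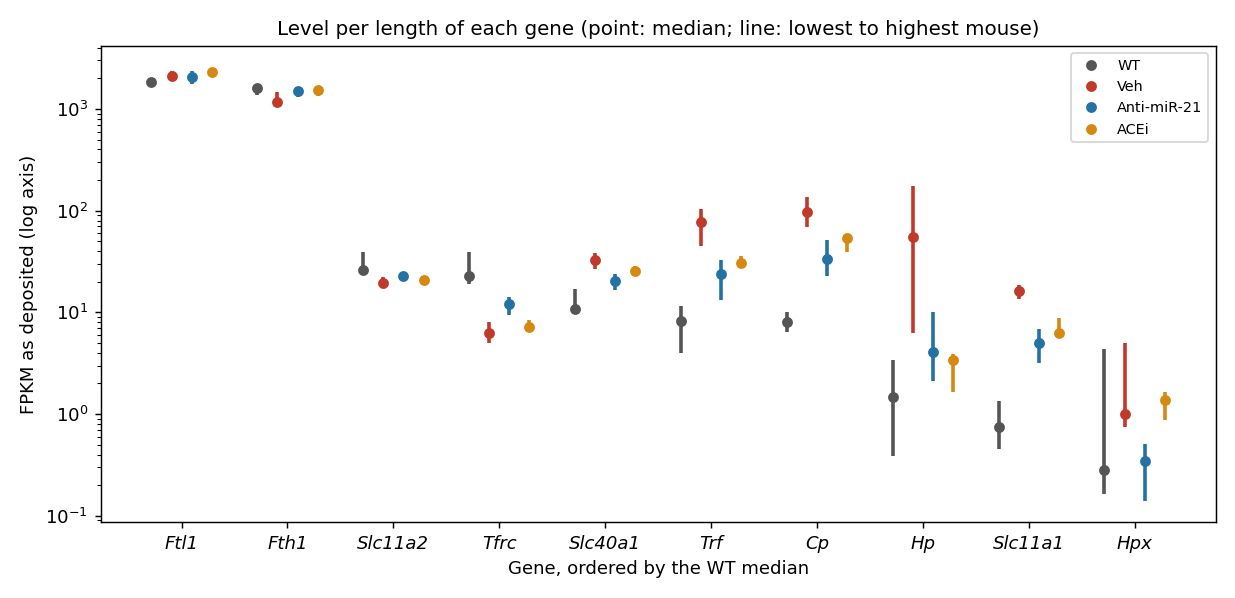
Deposited FPKM of the 10 genes on a log axis, ordered by the WT median, with a point for the group median and a line from the lowest to the highest mouse. The ferritin genes lay between 1079 and 2554 FPKM in all mice, and Tfrc moved from 22.6 FPKM in the WT median to 6.31 in Veh.

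The wider iron system was read from a list of 55 further genes by role, of which 50 were tested. In Veh against WT 46 were called, 16 higher and 30 lower, beside 73.0% of all genes. Against Veh 37 were called under anti-miR-21 (25 higher, 12 lower) and 32 under ACEi (24 higher, 8 lower), beside 59.2% and 40.1% of all genes. Without the 4 adipocyte-marker-rich mice the ACEi calls of Steap1, Scara5, Fbxl5, Hfe, Lrp1, Hmox1, Alas1 and Alas2 were lost and that of Slc25a28 was gained. The anti-miR-21 calls of Cybrd1, Steap4 and Tmprss6 were lost, as were the Veh calls of Bmp6 and Slc25a37 against WT. Hamp, the gene of the iron hormone hepcidin, was not tested: it had at most 4 counts in any WT mouse, 3 in any Veh mouse and 0 in the treated mice. The other untested genes were Hamp2, Hephl1, Ftmt and Hfe2.

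Among ferrireductases and ferroxidases 5 of 6 tested genes were higher in Veh and none lower: the reductases Steap1 (2.05), Steap4 (1.65), Cybrd1 (1.30) and Steap3 (1.24) and the ferroxidase Heph (1.52), all as log2 fold change, beside 39.0% of all genes called higher. All 5 were called lower under anti-miR-21 than in Veh, and 2 under ACEi, beside 30.5% and 19.1% of all genes. Without the 4 adipocyte-marker-rich mice Cybrd1 (-0.95, edgeR adjusted p = 0.079) and Steap4 (-0.44, edgeR adjusted p = 0.090) lost the anti-miR-21 call and Steap1 (-0.68, edgeR adjusted p = 0.053) the ACEi call. Of 9 other uptake genes, 3 were higher and 5 lower, beside 39.0% and 34.0% of all genes. Lcn2, which binds bacterial iron chelators and is released by injured tubules, was higher by 6.95 (3.67 ± 1.75 CPM in WT and 456 ± 177 CPM in Veh, SD; 6.37 without the adipocyte-marker-rich mice), Meltf by 4.35 and the other transferrin receptor gene, Tfr2, by 1.75. Meltf was at 0.21 to 0.70 CPM in WT, at most 17 counts, and at 5.28 to 9.94 CPM in Veh mice. It passed the filter only by its level in the Col4a3-/- groups, so its call against WT carries no weight of its own. The endocytic receptors of the proximal tubule Lrp2 (-2.40) and Cubn (-1.95), which take back filtered transferrin among other ligands, and the metal transporter Slc39a8 (-1.92) were lower. Tfr2 thus differed in the opposite direction to Tfrc, with 0.34 to 0.74 CPM in WT and 1.07 to 3.64 CPM in Veh mice, and its differences from Veh under anti-miR-21 (0.35) and ACEi (0.48) were not called (edgeR adjusted p = 0.30 and 0.27); without Veh mouse A16 the former was called (0.63, edgeR adjusted p = 0.047).

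Iron sensing and ferritin turnover genes were lower in 5 of 6 tested cases, beside 34.0% of all genes called lower. Aco1, the gene of iron regulatory protein 1, fell from 495 ± 70.3 to 157 ± 21.7 CPM (SD), a log2 fold change of -1.66, and was 354 ± 41.8 CPM under anti-miR-21 and 304 ± 19.1 CPM under ACEi. Ireb2, the gene of the other iron regulatory protein, fell by 0.52, and Ncoa4, the receptor that carries ferritin to the lysosome, by 0.70. Of the 7 listed genes of the hepcidin axis 4 passed the filter, Hfe, Bmp6, Tmprss6 and Erfe. All 4 were called higher in Veh, beside 39.0% of all genes, though the calls of Tmprss6 and Erfe carry no weight of their own. Hfe rose by 1.44 (12.7 ± 2.41 CPM in WT and 34.3 ± 3.46 CPM in Veh, SD). Bmp6 rose by 0.29 (edgeR adjusted p = 0.049; 38.6 ± 9.15 and 47.3 ± 7.66 CPM, SD), a call lost without any of WT mice A14, A17 and A18 or Veh mice A1, A9 and A19, at 0.18 (A18) to 0.31 (A1). The Bmp6 call was also lost without the 3 Alb-rich mice (0.14, edgeR adjusted p = 0.33) and without the 4 adipocyte-marker-rich mice (0.35, edgeR adjusted p = 0.059). Tmprss6 was at 0 to 0.67 CPM in WT, at most 16 counts, and 0.62 to 1.52 CPM in Veh mice, which overlapped. Erfe had at most 2 counts in any WT mouse, too few for a fold, and 0.37 to 0.70 CPM in Veh mice. Tmprss6 and Erfe passed the filter only through the Col4a3-/- groups, where they were higher, so their calls against WT carry no weight of their own. Erfe differed from Veh by -0.10 under anti-miR-21 and -0.05 under ACEi, neither called (edgeR adjusted p = 0.79 and 0.92).

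The heme genes went in both directions. Of 11 uptake, export and breakdown genes 4 were higher in Veh, the haptoglobin-hemoglobin receptor Cd163 (2.35), the hemopexin receptor Lrp1 (2.35; 59.6 ± 17.5 CPM in WT and 304 ± 33.2 CPM in Veh, SD), the exporter Flvcr1 (1.04) and heme oxygenase Hmox1 (0.67), and 7 were lower, among them Abcg2 (-1.56), Slc46a1 (-1.44) and Flvcr2 (-1.22), beside 39.0% and 34.0% of all genes. The size for Cd163 turned on 1 mouse: Veh mouse A9 had 9.44 CPM, the other Veh mice 0.79 to 2.34 CPM and the WT mice 0.25 to 0.89 CPM. Without A9 the rise was 1.30 (edgeR adjusted p = 0.0053), and without the 4 adipocyte-marker-rich mice 1.46 (edgeR adjusted p = 0.0092). Hmox1 stood at 45.0 ± 4.63 CPM in WT, 71.6 ± 13.2 in Veh, 66.0 ± 5.32 under anti-miR-21 and 94.5 ± 19.3 under ACEi (SD), and the difference from Veh was 0.40 under ACEi (edgeR adjusted p = 0.024) and -0.12 under anti-miR-21 (edgeR adjusted p = 0.39). The ACEi call was lost without ACEi mouse A13 (0.26, edgeR adjusted p = 0.20) or A23 (0.38, edgeR adjusted p = 0.074) and without the 4 adipocyte-marker-rich mice (0.27, edgeR adjusted p = 0.17). Of 14 genes of mitochondrial iron handling and heme synthesis 13 were lower in Veh and none higher, with a median of -1.04, beside 34.0% of all genes called lower. Under each treatment 11 were called higher than in Veh, beside 28.8% of all genes under anti-miR-21 and 21.0% under ACEi. The 5 proximal tubule markers moved the same way, with a median log2 fold change of -2.66 in Veh against WT and, against Veh, of 1.96 under anti-miR-21 and 1.81 under ACEi, all 5 called each time, and their part in these counts was not tested. Without the 4 adipocyte-marker-rich mice Alas1 (0.49, edgeR adjusted p = 0.075) and Alas2 (1.54, edgeR adjusted p = 0.089) lost the ACEi call. Slc25a28 gained it (0.33, edgeR adjusted p = 0.039). Alas2, the erythroid enzyme of the list, was the lowest at -4.40 (-3.65 without WT mouse A6) and is also 1 of the 6 red cell markers; Cpox (-1.997), Nfs1 (-1.66), Iscu (-1.26), Uros (-1.23) and Fech (-1.20) were among the others past 1 log2 unit.

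RefSeq promoter sequences (GRCm38.p6, 250 bases before to 50 after the start) were on hand for 6 of the 10 genes, as 9 windows. The hypoxia core, ACGTG or GCGTG on either strand, was found in windows of 4 of these genes (Slc11a1, Ftl1, Tfrc and Fth1), and in 43.8% of all 32851 promoters. The antioxidant core, TGACNNNGC on either strand, was found in 1 (Hpx) and in 12.4% of all promoters. Both Tfrc windows, which overlap, held the hypoxia core 3 times.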

How the data were processed

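Whole kidney from 20 mice was sequenced, each library from a separate mouse, and the groups were taken from the labels. Per the methods and labels, the authors aligned reads with OmicSoft's OSA aligner to GRCm38 and deposited estimated counts per gene and FPKM values. Of the non-zero estimated counts, 29.1% were not whole, so they were rounded before the count tests. The FPKM table was used for levels between genes and for alternatives, and its 3 columns that match no sample were not used. The labels do not say how the counting treated strand or shared reads. The genes and the lists were chosen with earlier results of these data known.

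Genes passing edgeR's filter (minimum count 10, minimum total 15) were fitted over all 20 mice with TMM scaling and the quasi-likelihood test (edgeR 4.0.16, R 4.3.3), and genes were called at a Benjamini-Hochberg adjusted p under 0.05. DESeq2 1.42.0, limma 3.58.1 on log2(FPKM + 1) or with a pseudocount of 0.1, other scalings and filters, flow cell as a term, flow cell A by itself, fits of single pairs of groups and fits without each mouse in turn were alternatives. On the log2(FPKM + 1) scale the change of low genes is understated. Leaving out the mice rich in adipocyte markers (over 100 CPM) or in Alb (over 50 CPM) was chosen after seeing the data. Named were the 10 genes, the listed iron genes with their values where the text turns on them, and, for genes called in Veh against WT at 1 log2 unit or more, the 3 nearest protein-coding genes. The statistics were tested on simulated data with known changes. Hairpin and promoter letters were searched with Python 3.11.15.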

Additional observations from a re-analysis of the deposited data

Results flagged for a closer look

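Hpx in Veh mouse A20 stood apart from the other 5 Veh mice, at a log2 CPM of 2.56 against 0.56 for the nearest and -0.10 for the farthest of them. The gap took 0.752 of the range of the group, above Dixon's critical value for 6 samples. It was 1 flag of 30 such tests over the 10 genes in the WT, Veh and anti-miR-21 groups, and chance flags about 1 in 20 groups. The same mouse had 65.1 CPM of Alb, and the values of Hpx without it stand with that gene's results.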

How the results depend on the processing

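Of the alternatives for single log2 fold changes of the 10 genes, 1236 kept direction and side of the threshold, 57 lost the call, 11 gained it and 40 changed sign, and the sign changes fell on Hpx, Ftl1 and Slc40a1. No cause was tested. No paired analysis was possible because the labels give each mouse its own name and pair no mice across groups; replicate numbers here follow accession order only.

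Hpx, Veh minus WT (-0.53), became 0.047 with library totals alone, 0.062 with flow cell as a term, 1.56 within flow cell A alone, 0.21 on FPKM with a pseudocount of 1 (0.21 with a mean FPKM of at least 1), 0.75 with a pseudocount of 0.1 and 1.61 without the 3 Alb-rich mice; leaving out single mice gave -1.26 (A20) to 0.31 (A18). Hpx, ACEi minus WT, became 0.14, 0.14 and 0.71 on FPKM and 2.29 without the Alb-rich mice, and ran from -0.87 to 0.26 (A18) with single mice left out. Hpx, ACEi minus Veh, became 0.68 without the Alb-rich mice, and ran from -0.28 to 0.70 (A20). Hpx, anti-miR-21 minus WT, became 0.33 within flow cell A alone and 0.45 without the Alb-rich mice.

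Ftl1, Veh minus WT, became 0.22 with library totals alone and 0.27 on each FPKM setting. Ftl1, anti-miR-21 minus Veh, became -0.024 with library totals alone and -0.056 on each FPKM setting. Ftl1, anti-miR-21 minus WT, became 0.19 with library totals alone, 0.22 on each FPKM setting and 0.0069 without the Alb-rich mice, and ran from -0.10 to 0.014 (A2). Ftl1, ACEi minus WT, ran from -0.038 (A13) to 0.14. Slc40a1, ACEi minus Veh (-0.01), became 0.0068 without a filter and 0.022 with flow cell as a term, and ran from -0.056 to 0.059 (A19).

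For anti-miR-21 minus ACEi, 0.584% of genes tested (103) were called, against 1.61% (437) with DESeq2 and 0.243% (66) without a filter, both of all genes with a count, 1.12% (155) with 10 counts in every mouse, 0.28% (60) on FPKM with a pseudocount of 0.1, 0.365% (63) without the 4 adipocyte-marker-rich mice, and 0.117% (A23) to 1.22% (A8) with single mice left out, being 0.369% or less without each of A10, A11, A13, A15 and A22; of the 10 genes, 1 was called with DESeq2, 2 with only these groups fitted, 1 without the Alb-rich mice, and 0 with any single mouse left out. For ACEi minus Veh, 40.1% of genes (7074) and 7 of the 10 were called, against 26.7% (4614) and 3 without the adipocyte-marker-rich mice, and 27.6% to 41.7% and 4 (A13) to 8 with single mice left out. For anti-miR-21 minus WT, 8 of the 10 were called, against 5 both within flow cell A alone and without the Alb-rich mice, and 6 to 8 with single mice left out. Flow cell A held 1 ACEi library, so no ACEi comparison was made within it. With library totals alone the called genes split into 2459 higher and 9861 lower for anti-miR-21 minus Veh, 1907 and 7389 for ACEi minus Veh, 7719 and 998 for anti-miR-21 minus WT, and 8006 and 1345 for ACEi minus WT.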

Other observations

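Beyond the iron genes, the marker lists gave the cell background against which these kidneys were read. In Veh against WT, the 5 T cell markers, 4 of 5 B and plasma cell markers, the 5 fibroblast markers and the 5 tubule injury markers were called higher, both thick ascending limb markers were called lower, and 2 of 3 podocyte markers were called higher, beside 39.0% of all genes called higher and 34.0% called lower. Cd3d, Cd3e and Cd2 (T cell) and Ms4a1 (B cell) had at most 8, 9, 8 and 4 counts in any WT mouse. They passed the filter only through the Col4a3-/- groups, where they were higher, so their part in these counts carries no weight of its own. Cd3g, Cd5 and Krt20 were also low in WT, at no more than 12, 11 and 14 counts. The fibroblast markers summed to 134 to 316 CPM in WT, 2598 to 3286 in Veh, 557 to 1209.6 in anti-miR-21 and 1308 to 1453 in ACEi mice, so neither treated group overlapped WT or Veh. Col1a1 and Col3a1 carried most of that sum (means of 1177 and 1414 CPM in Veh). Dcn was not lower under anti-miR-21 (mean 186 CPM, against 181 in Veh). Of the 5 fibroblast markers 4 were called lower than in Veh under anti-miR-21 and 3 under ACEi, beside 30.5% and 19.1% of all genes. The tubule injury markers (Havcr1, Krt20, Vcam1, Spp1 and Sox9) summed to 560.4 to 642 CPM in WT and 10123 to 15027 in Veh mice. Their sum was 3562 to 8718 CPM in anti-miR-21 and 6798 to 7274 in ACEi mice. Spp1 carried most of it (means of 11740.5 CPM in Veh and 6613 in ACEi mice). Of these 5 markers 4 were called lower than in Veh under anti-miR-21 but only 1 under ACEi, beside 30.5% and 19.1% of all genes. Their median log2 fold changes were -1.01 and -0.35. Of the 6 hepatocyte markers 1 was called higher and 1 lower, and of the 6 adipocyte markers 5 were called higher.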
